A study of Mus musculus with 10 samples.

Results

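The genes described are 10 whose proteins are secreted into milk or coat its fat globules, on oligonucleotide arrays of MMTV-PyMT mouse mammary tumours: the caseins Csn1s1, Csn2, Csn1s2a, Csn1s2b and Csn3, the whey proteins Wap, Lalba and Ltf, and the fat globule proteins Muc1 and Xdh. They were chosen by name, and are 10 of the 8251 genes that the array's annotation names; each was read by 1 probe set, of 12422 that are not controls. All 10 passed the filter on dim probe sets, which 9899 probe sets passed. In the MMTV-PyMT model the polyomavirus middle T antigen is expressed in mammary epithelium under a promoter taken from the mouse mammary tumour virus, and tumours arise there. Per the labels, all 10 arrays held biotin-labelled total RNA of mammary gland tumours, from adult females at 90 days of age. The titles of 9 arrays name a strain: ILn, LP, MOLF and NZB (arrays A and B of each) and FVBn (array B alone). The strain field gives FVB/Nj for every array, so these groups rest on the titles, which also call each sample a mix without saying of what. The remaining array has a title that names neither a strain nor a tumour, and it was kept out of every test. The titles of ILn A and NZB B do not name a tumour either. The labels do not say that arrays A and B of a strain came from separate animals, so p-values reflect the spread between arrays alone, and that spread may be technical.

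Milk proteins are made by luminal secretory cells of the mammary gland. Prolactin acts on these cells through its receptor, the kinase Jak2 and the transcription factor Stat5, together with glucocorticoid and insulin, and switches on casein and whey genes during pregnancy and lactation. Caseins bind calcium phosphate and gather into micelles whose surface is held by kappa casein (Csn3), whereas whey proteins stay dissolved. Milk proteins can also be made in mammary tumours.

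The 5 casein genes lie close together on chromosome 5 in the RefSeq gene order of GRCm38.p6, in the order Csn1s1, Csn2, Csn1s2a, Csn1s2b and Csn3, with Prr27, Odam and BC037156 between the last 2. Wap is on chromosome 11, Lalba on 15, Ltf on 9, Muc1 on 3 and Xdh on 17. Promoters in GRCm38.p6, from RefSeq, were matched for 7 of the 10 genes, each covering 250 bases before to 50 after the gene's start; Csn1s2b, Csn3 and Xdh had no match. Those of the 3 matched caseins and of 2 whey proteins are shown. The matched caseins were all highest in NZB tumours, and Csn1s2b and Csn3, which were not, had no match. Within the casein cluster, the presence of the Stat5 element therefore cannot be set against the order of strains. Over the 7 matched genes no such comparison was made. Capitals mark each match to TTCNNNGAA, the palindrome that Stat5 binds, which reads the same on both strands.
Csn1s1 promoter (chr5:87665958-87666257, plus strand): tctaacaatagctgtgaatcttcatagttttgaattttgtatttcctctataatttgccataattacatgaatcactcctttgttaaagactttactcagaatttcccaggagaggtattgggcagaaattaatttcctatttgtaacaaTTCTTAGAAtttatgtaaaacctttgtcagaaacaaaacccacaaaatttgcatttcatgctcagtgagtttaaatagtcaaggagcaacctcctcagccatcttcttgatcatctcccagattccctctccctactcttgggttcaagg
Csn2 promoter (chr5:87699376-87699675, minus strand): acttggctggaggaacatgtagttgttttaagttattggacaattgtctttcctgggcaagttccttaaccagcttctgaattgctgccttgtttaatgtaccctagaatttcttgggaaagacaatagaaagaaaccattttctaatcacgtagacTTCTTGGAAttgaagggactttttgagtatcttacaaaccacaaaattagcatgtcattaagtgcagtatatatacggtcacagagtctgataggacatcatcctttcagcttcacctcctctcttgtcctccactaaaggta
Csn1s2a promoter (chr5:87774200-87774499, plus strand): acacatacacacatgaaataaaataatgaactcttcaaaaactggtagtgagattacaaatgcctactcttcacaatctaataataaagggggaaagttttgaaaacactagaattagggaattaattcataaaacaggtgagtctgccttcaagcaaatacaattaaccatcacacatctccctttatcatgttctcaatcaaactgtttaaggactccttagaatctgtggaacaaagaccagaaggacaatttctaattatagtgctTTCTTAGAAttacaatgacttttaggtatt
Wap promoter (chr11:6638600-6638899, minus strand): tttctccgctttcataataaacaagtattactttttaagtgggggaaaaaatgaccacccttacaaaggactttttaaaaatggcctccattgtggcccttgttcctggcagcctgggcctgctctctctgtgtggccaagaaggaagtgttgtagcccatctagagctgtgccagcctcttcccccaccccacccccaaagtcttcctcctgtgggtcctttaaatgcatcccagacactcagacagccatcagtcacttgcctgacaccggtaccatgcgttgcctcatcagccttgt
Lalba promoter (chr15:98482634-98482933, minus strand): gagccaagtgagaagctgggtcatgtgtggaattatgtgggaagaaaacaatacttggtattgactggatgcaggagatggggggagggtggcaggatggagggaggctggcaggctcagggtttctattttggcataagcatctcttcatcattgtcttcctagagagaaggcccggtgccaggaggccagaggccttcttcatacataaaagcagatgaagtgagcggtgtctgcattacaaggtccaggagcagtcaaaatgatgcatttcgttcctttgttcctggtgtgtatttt
The element was found in 3 of the 7 promoters, as TTCTTAGAA at position -100 in Csn1s1, as TTCTTGGAA at position -93 in Csn2 and as TTCTTAGAA at position 20 in Csn1s2a, where the gene's start is position 0. Of 32851 promoters of 300 bases, 8.3% held it. The letters were not in these windows of Wap, Lalba, Ltf or Muc1. The short element TGTTCT, bound by the glucocorticoid receptor and searched on both strands, was in the Csn1s2a window alone among the 7, at position -59, and in 19% of all promoters. TATAAA, the TATA box, was in the Muc1 window alone, at position -31, and in 13.6% of all promoters. A match is a description of letters and not of binding.

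Each array's values were brought to 1 distribution by quantile normalization, with a floor at the 30th percentile (an intensity of 27.0, or log2 4.75). Levels below are log2 intensities of a probe set and are compared only between arrays. The paired arrays of MOLF and of NZB were less alike than those of ILn and LP. Between the 2 arrays of a strain, the correlation over tested probe sets was 0.868 for MOLF and 0.852 for NZB. It was 0.974 for ILn and 0.961 for LP. Such a correlation does not tell which array of a pair differs. Array A minus array B in MOLF had r = -0.71 with array A minus array B in NZB. The main differences between strains are also given without MOLF A and NZB B. The log2 ratio of the 3' to the 5' actin control, a sign of RNA integrity, was 0.94 and 1.12 in LP, 0.96 and 1.03 in NZB, 0.60 and 0.78 in MOLF, 0.22 and 0.28 in ILn, and 0.22 in FVBn. In these bulk samples, fewer cells of a type and less RNA per cell cannot be told apart.

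The calcium-sensitive casein Csn1s2a differed most clearly between strains: it was 2.53-fold higher in NZB tumours and 2.15-fold lower in LP tumours than the mean of the other strains. Csn1s1 and Csn2, other caseins of the cluster, were also highest in NZB without passing the test, and Csn2 was lowest in LP. Csn1s2b and Csn3 did not share that order, with log2 differences of -0.37 and -0.24 for NZB that did not pass. Ltf was 1.84-fold lower in MOLF tumours than the mean of the others. These 2 of the 10 genes, Csn1s2a and Ltf, passed limma's F test over the 4 strains that have 2 arrays each, after Benjamini-Hochberg adjustment at 0.05, which 0.748% of all tested probe sets passed. At an unadjusted p under 0.05 the counts were 7 of the 10 genes and 7.9% of all probe sets.

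**Figure D1:**
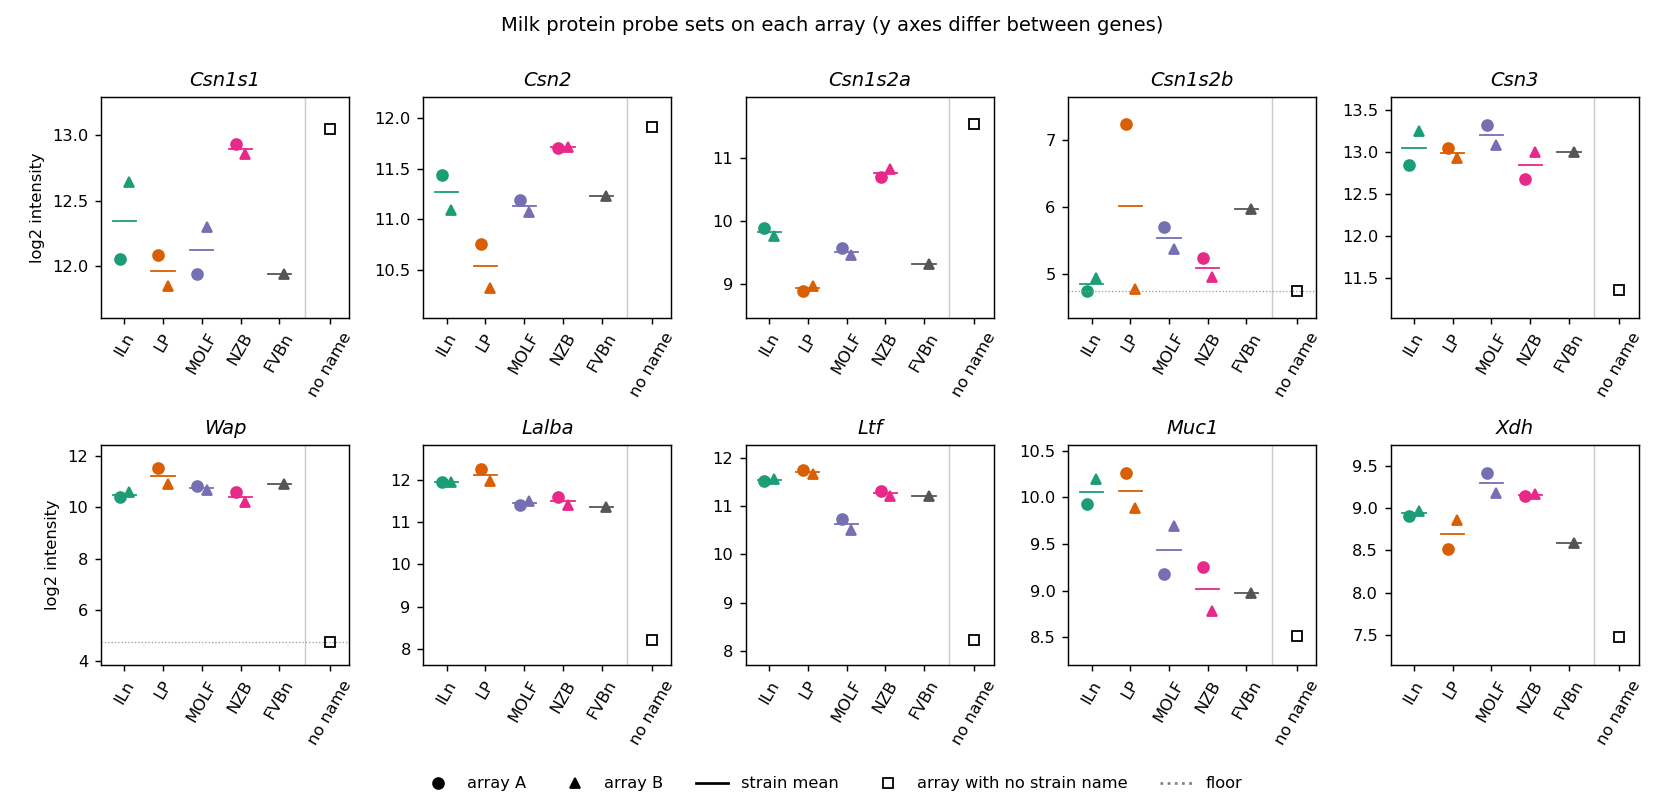
Log2 intensity (vertical axes, which differ between genes) of the 10 milk protein probe sets by strain name, with array A as circles, array B as triangles, lines at the strain means and the array with no strain name as an open square. The NZB arrays lie above all other strain arrays for Csn1s1, Csn2 and Csn1s2a, the MOLF arrays lie lowest for Ltf, and the unnamed array is at the floor for Wap.

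Csn1s2a encodes an alpha-s2-like casein, gamma casein under its older name. Its level was 10.70 and 10.82 on the NZB arrays, 9.89 and 9.77 in the ILn pair, 9.57 and 9.46 on the MOLF arrays, 8.89 and 8.98 on the LP arrays and 9.31 on the FVBn array. The strains did not overlap with one another, in the order NZB, ILn, MOLF, FVBn and LP. The mean was 10.76 in NZB, against 9.42 for the mean of ILn, LP and MOLF, a log2 difference of 1.34 (SE 0.113, adjusted p = 0.0079). It was 8.93 in LP, against 10.03 for the mean of ILn, MOLF and NZB, a log2 difference of -1.10 (SE 0.113, adjusted p = 0.0189). In all, 0.101% of tested probe sets passed the NZB comparison and 0.313% passed the LP comparison.

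The direction of both Csn1s2a differences was the same under every alternative processing, but the calls were not. Over 17 alternatives the NZB difference lay between 1.08 and 1.40 and passed in 7, and the LP difference lay between -1.15 and -0.91 and passed in 5. Without MOLF A and NZB B the differences were 1.30 (adjusted p = 0.11) for NZB and -1.06 (adjusted p = 0.0891) for LP. With any 1 of 8 arrays left out, the NZB difference lay between 1.28 and 1.40 and the LP difference between -1.15 and -1.06. Both calls were mostly lost there. Those fits have fewer arrays and leave 1 strain with 1 array, so a lost call is not tied to the array left out. With the title date as a block, 0 of all tested probe sets passed for LP or for NZB. Among the arrays that share the title date at which every strain has 1 array, the NZB array differed by 1.30 from the mean of ILn, LP and MOLF, and the LP array lay 1 log2 unit under the mean of ILn, MOLF and NZB, with no test. Both strains at the ends of the Csn1s2a range had high actin 3' to 5' ratios, and the part of RNA integrity in the differences was not tested.

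Csn1s1 and Csn2, the alpha-s1 and beta caseins, form most of the casein in rodent milk together with kappa casein. The Csn1s1 level was 12.93 and 12.86 on the NZB arrays, 12.05 and 12.64 in the ILn pair, 12.08 and 11.85 on the LP arrays, 11.94 and 12.30 on the MOLF arrays and 11.94 on the FVBn array. The NZB arrays lay above all others, and the remaining strains overlapped. The Csn2 level was 11.70 and 11.71 on the NZB arrays, 11.44 and 11.10 in the ILn pair, 11.19 and 11.08 on the MOLF arrays, 10.76 and 10.33 on the LP arrays and 11.23 on the FVBn array. The NZB arrays were highest and the LP arrays lowest, with no overlap with the other strains, whereas ILn, MOLF and FVBn lay close together. Neither gene passed a test: for NZB against the other strains the log2 difference was 0.75 (adjusted p = 0.337) for Csn1s1 and 0.73 (adjusted p = 0.234) for Csn2. For LP against the other strains it was -0.49 (adjusted p = 0.786) for Csn1s1 and -0.83 (adjusted p = 0.159) for Csn2. Without MOLF A and NZB B the differences were 0.73 and -0.56 for Csn1s1 and 0.74 and -0.81 for Csn2, for NZB and LP in that order, and did not pass.

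Both NZB arrays lay above all 6 arrays of ILn, LP and MOLF for 3 of the 10 genes (Csn1s1, Csn2 and Csn1s2a) and for 3.74% of all probe sets. As a description over the 9 strain arrays, which share strains in pairs, the level of Csn1s2a correlated with that of Csn2 (Pearson r = 0.886, Spearman rho = 0.867) and of Csn1s1 (r = 0.847, rho = 0.669). Without MOLF A and NZB B, over 7 arrays, r was 0.864 with Csn2 and 0.821 with Csn1s1.

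The casein genes of this cluster did not all follow that order. Csn1s2b, a calcium-sensitive casein known earlier as delta or epsilon casein, was dim: its level was 7.24 and 4.78 on the LP arrays, 5.71 and 5.38 on the MOLF arrays, 5.24 and 4.97 on the NZB arrays, at the floor of 4.75 on ILn A, 4.95 on ILn B and 5.97 on FVBn. The LP A array alone reached above 6, and its partner was near the floor. Csn3, the kappa casein of the micelle surface, had a level of 13.32 and 13.08 on the MOLF arrays, 12.86 and 13.25 in the ILn pair, 13.05 and 12.93 on the LP arrays, 12.69 and 13.00 on the NZB arrays and 13.00 on the FVBn array. All neighbouring strains in its order overlapped, and its whole range of 0.637 was the narrowest of the 10 genes. That range depends on the processing, since Csn3 ranked 17 or brighter on every strain array, where quantile normalization sets nearly equal values. Its strain means spanned 0.359 here, against 0.830 with median centring and 0.727 with trimmed-mean scaling. The F test gave an adjusted p of 0.827 for both genes. Of the genes that flank the cluster, Smr3a and Smr2, salivary secretory genes on the far side of Csn3, were the ones tested. Smr3a, at 12.69 and 12.67 in ILn, 9.31 and 9.42 in MOLF, 6.35 and 4.75 in NZB, 4.75 and 4.75 in LP and 12.25 in FVBn, had another order of strains than any casein. Smr2, at 6.15 and 6.15 in NZB, 5.10 and 4.94 in ILn, 4.93 and 5.58 in MOLF, 5.49 and 6.05 in LP and 5.76 in FVBn, was highest on both NZB arrays, but its NZB difference of 0.80 (adjusted p = 0.541) did not pass.

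Among whey proteins, Wap (whey acidic protein, a major rodent whey protein) and Lalba (alpha-lactalbumin, the subunit that turns a galactosyltransferase into lactose synthase) were highest in LP, where Csn2 and Csn1s2a were lowest. The Wap level was 11.53 and 10.91 on the LP arrays, 10.82 and 10.66 on the MOLF arrays, 10.40 and 10.58 in the ILn pair, 10.59 and 10.19 on the NZB arrays and 10.90 on the FVBn array. The LP arrays were above all others, LP B by very little over FVBn. The Lalba level was 12.25 and 11.97 on the LP arrays, 11.95 and 11.96 in the ILn pair, 11.60 and 11.41 on the NZB arrays, 11.41 and 11.51 on the MOLF arrays and 11.36 on the FVBn array. LP and ILn lay above the other strains, NZB and MOLF overlapped, and FVBn was lowest. The LP differences from the mean of the other strains were 0.68 (adjusted p = 0.461) for Wap and 0.47 (adjusted p = 0.358) for Lalba, and neither passed. Leaving out MOLF A and NZB B, they were 0.64 for Wap and 0.42 for Lalba. Both LP arrays lay above all 6 arrays of the other 3 strains for 3 of the 10 genes (Wap, Lalba and Ltf), against 4.47% of all probe sets, and below them for 3 (Csn2, Csn1s2a and Xdh), against 2.55%.

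The 3 caseins Csn1s1, Csn2 and Csn1s2a and the whey proteins Wap and Lalba were set against each other by array. For each array the mean of Csn1s1, Csn2 and Csn1s2a and the mean of Wap and Lalba were taken relative to the 9 strain arrays, and their difference was 0.85 and 1.16 in NZB, 0.12 and 0.07 in ILn, -0.05 and 0.02 in MOLF, -1.15 and -0.89 in LP, and -0.14 in FVBn. NZB arrays were at one end and LP arrays at the other, and the other 5 arrays lay near 0. Taken from the deposited values without normalization, the difference was 0.76 and 1.21 in NZB and -1.25 and -0.88 in LP. These genes were grouped with their values known, and no test was made of the difference. Csn1s2b, Csn3 and the whey protein Ltf were left out. Their log2 differences were -0.37, -0.24 and -0.02 for NZB and 0.85, -0.04 and 0.56 for LP, and none passed. The values are therefore not those of caseins and whey proteins as a whole. Over the 9 arrays Wap and Csn1s2a had r = -0.80 (rho = -0.933), and r = -0.71 over the 7 arrays without MOLF A and NZB B.

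**Figure D2:**
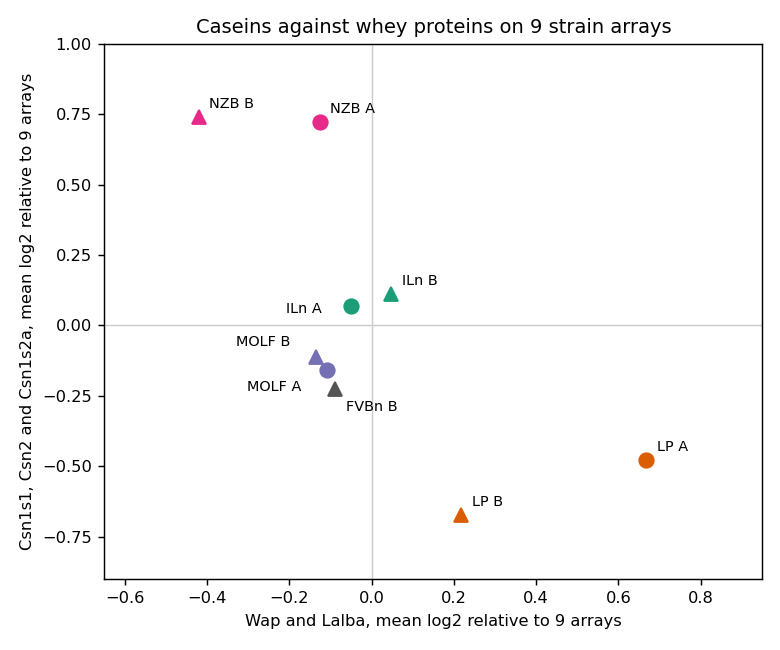
Mean log2 level of Csn1s1, Csn2 and Csn1s2a (vertical axis) against that of Wap and Lalba (horizontal axis), each relative to the 9 strain arrays, with circles for array A and triangles for array B. NZB arrays sit at the upper left, LP arrays at the lower right and the other strains near the centre.

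Ltf encodes lactoferrin, an iron-binding protein of whey that other secretory epithelia and neutrophil granules also contain. Its level was 10.73 and 10.51 on the MOLF arrays, 11.76 and 11.66 on the LP arrays, 11.52 and 11.57 in the ILn pair, 11.32 and 11.21 on the NZB arrays and 11.21 on the FVBn array. Both MOLF arrays were below all others, the LP arrays were above all others, and NZB overlapped with FVBn. The mean was 10.62 in MOLF, against 11.51 for the mean of ILn, LP and NZB, a log2 difference of -0.88 (SE 0.111, adjusted p = 0.026). For LP, whose mean was 11.71, against MOLF, at 10.62, the log2 difference was 1.09 (SE 0.136, 2.12-fold, adjusted p = 0.0215). Of all tested probe sets 0.414% passed the MOLF comparison and 0.444% the comparison of LP with MOLF. The F test for Ltf gave an adjusted p of 0.0475.

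The Ltf differences kept their direction but mostly not their call under other processing. For MOLF the difference lay between -1.06 and -0.77 over 17 alternatives and passed in 2; without MOLF A and NZB B it was -1.01 (adjusted p = 0.124). For LP against MOLF it lay between 0.98 and 1.52 and passed in 4, and without these 2 arrays it was 1.20 (adjusted p = 0.106). Both Ltf calls were lost when any 1 of the 8 arrays of these strains was left out. The difference then lay between -0.99 and -0.77 for MOLF and between 0.98 and 1.20 for LP against MOLF. Those fits have fewer arrays and leave 1 strain with 1 array, so a lost call is not tied to the array left out. Within title dates shared by LP and MOLF, Ltf was higher in LP by 1.02 on the A arrays and by 1.15 on the B arrays.

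Both MOLF arrays lay below all 6 arrays of ILn, LP and NZB for 1 of the 10 genes (Ltf) and for 3.38% of all probe sets, and above them for 1 gene (Xdh) and for 2.84%. Among the 11 luminal epithelial markers, Krt19, a keratin of luminal cells, was also lower in MOLF, by a log2 difference of -1.19 (adjusted p = 0.0274); its other probe set did not pass, and without MOLF A and NZB B the difference was -1.03 (adjusted p = 0.246). The mean of the luminal list, relative to the 9 arrays, was -0.20 and -0.11 in MOLF, against 0.17 and 0.18 in LP, 0.08 and 0.11 in ILn, -0.15 and -0.01 in NZB, and -0.08 in FVBn. Its part in the Ltf difference was not tested. Of 10 neutrophil markers, S100a9, Ngp, Mmp9 and Mmp8 were at the floor on every strain array. Of the other 6 tested, 0 passed and 1 had an unadjusted p under 0.05 in limma's F test. Over all probe sets these shares were 0.748% and 7.9%. The summed intensity of these 6 was 903 to 1093 in MOLF, 776 to 955 in LP, 580 to 698 in ILn, 791 to 866 in NZB, and 1044 in FVBn. The part of neutrophils in the Ltf difference was not tested.

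Muc1 and Xdh are proteins of the milk fat globule membrane. Muc1 encodes a mucin of the apical surface of luminal cells. Its level was 9.93 and 10.19 in the ILn pair, 10.26 and 9.89 on the LP arrays, 9.18 and 9.69 on the MOLF arrays, 9.26 and 8.78 on the NZB arrays and 8.97 on the FVBn array. ILn and LP were high and overlapped, whereas MOLF, NZB and FVBn were low and overlapped. The Muc1 log2 difference was -0.84 (adjusted p = 0.34) for NZB against the other strains and 1.05 (adjusted p = 0.257) for ILn against NZB. These were, with MOLF A and NZB B left out, -0.68 and 0.80. Xdh encodes xanthine oxidoreductase, an enzyme of purine breakdown that is also needed to envelop milk fat droplets. Its level was 9.42 and 9.17 on the MOLF arrays, 9.14 and 9.17 on the NZB arrays, 8.91 and 8.97 in the ILn pair, 8.52 and 8.87 on the LP arrays and 8.58 on the FVBn array. The MOLF arrays were highest, LP overlapped with FVBn at the low end, and neither gene passed a test. Muc1 followed Lalba over the 9 arrays (r = 0.908, rho = 0.904; r = 0.896 over 7 arrays), as a description.

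**Figure D3:**
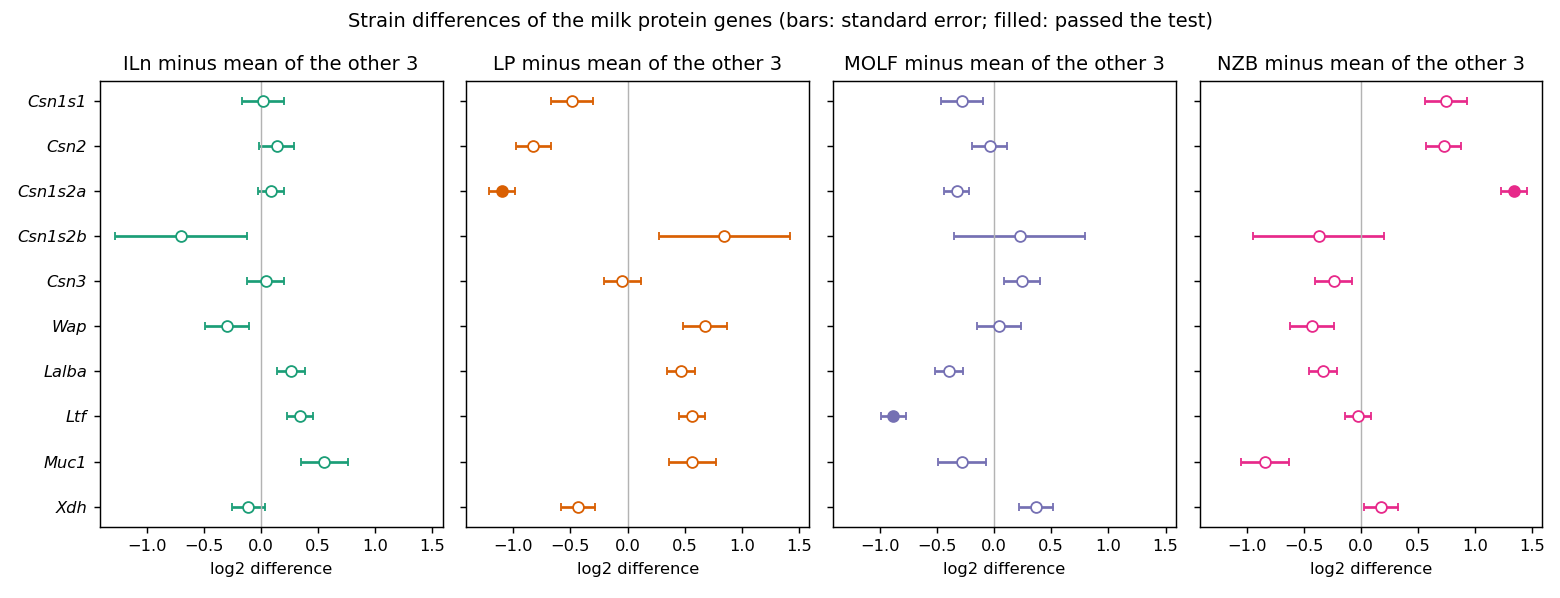
Log2 difference (horizontal axis) of each milk protein gene between a strain and the mean of the other 3 strains with 2 arrays, with bars for the standard error from limma and filled points for an adjusted p under 0.05. Filled points are Csn1s2a in LP (-1.10) and NZB (1.34) and Ltf in MOLF (-0.88).

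In 3 comparisons no milk protein gene passed limma's test. ILn against the mean of LP, MOLF and NZB was passed by 0 of the 10 genes and by 0.404% of all probe sets; at an unadjusted p under 0.05 the counts were 2 genes and 7.11% of probe sets. ILn against NZB was passed by 0 genes and by 0.343% of all probe sets, with 4 genes and 9.22% at an unadjusted p under 0.05. Csn1s2a came nearest there, with a log2 difference of -0.94 (SE 0.139, adjusted p = 0.0559), and it passed when no filter on dim probe sets was used. With MOLF A and NZB B left out it was -0.88 (adjusted p = 0.152). The mean of ILn, LP, MOLF and NZB against FVBn was passed by 0 genes and by 0.313% of all probe sets, with 3 genes (Csn1s2a, Lalba and Muc1) and 3.41% at an unadjusted p under 0.05. The 4-strain mean against the FVBn level was 9.76 against 9.31 for Csn1s2a, 11.76 against 11.36 for Lalba and 9.65 against 8.97 for Muc1. With 1 FVBn array, its spread was taken to equal that of the other strains.

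The regulators of milk genes that could be tested did not pass in any comparison. Prlr, the prolactin receptor gene, had no probe set annotated to it alone, and Insr and Erbb4 did not pass the filter. Nr3c1, the glucocorticoid receptor gene, was at the floor on the LP, MOLF and NZB arrays. Of 30 genes listed for prolactin signalling and secretory differentiation, 24 were tested and 0 passed any of the 8 comparisons in limma. The F test gave 3 of the 24 an unadjusted p under 0.05, against 7.9% of all probe sets. Those with the widest spread of strain means were Cish, a feedback inhibitor induced by Stat5, and Stat5b itself. The Cish level was 6.90 and 6.09 in ILn, 6.69 and 6.10 in LP, 9.16 and 7.01 in MOLF, 6.56 and 9.36 in NZB and 6.23 in FVBn. The high values were those of MOLF A and NZB B, from the pairs that were less alike. The Stat5b level was 6.60 and 6.45 in ILn, 5.95 and 5.93 in LP, 5.94 and 6.27 in MOLF, 5.31 and 4.75 in NZB and 6.84 in FVBn, lowest on the NZB arrays (F test adjusted p = 0.494). The strain means of Stat5a, whose product is the main Stat5 of the mammary gland, spanned 0.451 (adjusted p = 0.796). The mean of the list relative to the 9 arrays stayed between -0.09 and 0.14 on every strain array.

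Of 36 genes listed for milk fat, lactose and transport, 28 were tested and 0 passed any comparison in limma, while 11 of the 28 had an unadjusted p under 0.05 in the F test, against 7.9% of all probe sets. The widest spread was that of Btn1a1, butyrophilin, which partners Xdh on the fat globule. Its level was 9.20 and 9.53 in ILn, 8.77 and 8.61 in LP, 7.06 and 8.13 in MOLF, 9.36 and 8.90 in NZB and 8.62 in FVBn, and it was lowest on both MOLF arrays (F test adjusted p = 0.273). Cidea, a lipid droplet protein of mammary and brown fat cells, was at 8.04 and 7.29 in MOLF, against 6.12 to 7.00 on the other strain arrays.

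Genes of other tissues moved with strain and are set beside the milk genes. Counts take 1 probe set per gene, the one with the highest mean. Over all tested probe sets 0.748% passed the F test and 7.9% had an unadjusted p under 0.05 in it. The summed intensity of 10 skeletal muscle markers was 11397 to 12119 in LP, 9892 to 9928 in NZB, 3695 to 3754 in ILn, 1673 to 2210 in MOLF and 1380 in FVBn, and 6 of the 10 passed the F test. Other probe sets of Atp2a1 and Pvalb passed the F test (adjusted p = 0.0101 and 0.0438) where those used did not. The other Myh4 probe set did not pass where the one used did. The summed muscle intensity was high both in LP and in NZB, which lay at opposite ends for Csn1s2a. That of 9 salivary gland markers was 24438 to 26181 in ILn, 4367 to 5243 in MOLF, 472 to 495 in NZB, 392 to 569 in LP and 33459 in FVBn, and 8 of the 9 passed. Their part in the milk gene differences was not tested. Of the basal and myoepithelial markers Krt5 and Krt14 were at the floor on every strain array, and of the 6 tested 0 passed limma's F test and 2, Mylk and Myh11, had an unadjusted p under 0.05. The mean of these 6 relative to the 9 arrays was 0.16 and 0.48 in NZB, 0.38 and -0.05 in MOLF, 0.06 and -0.15 in LP, -0.33 and -0.26 in ILn, and -0.29 in FVBn. Their summed intensity was 1014 to 1358 in NZB, 858 to 1093 in MOLF, 750 to 766 in LP, 665 to 752 in ILn and 683 in FVBn. NZB, the strain highest for Csn1s1, Csn2 and Csn1s2a, had the highest mean of the strains for this list as well, but its genes differed. Acta2, Mylk, Myh11 and Trp63 had their highest strain mean in NZB. The Krt17 probe set used had it in MOLF (7.47, against 6.93 in NZB), and Cnn1 was at the floor on both NZB arrays. The highest list means were those of NZB B and MOLF A, from the pairs of arrays that were less alike. The part of basal and myoepithelial cells in the casein differences was not tested. Of 10 fibroblast markers 8 had an unadjusted p under 0.05 in the F test, and Col3a1 passed (higher in ILn by 1.02, adjusted p = 0.016), with a difference of 0.99 (adjusted p = 0.053) once MOLF A and NZB B were left out. The other Col3a1 probe sets did not pass for ILn (adjusted p = 0.355 and 0.986). For Col1a2 the probe set used had an ILn difference of -0.45 that did not pass. Its other probe set was higher in ILn by 1.64 and passed in limma (adjusted p = 0.0031). Of 7 adipocyte markers 0 passed limma's F test and 2 had an unadjusted p under 0.05, and of 10 macrophage markers 0 passed and 3 did.

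The probe sets most like the mean of the 5 standardized caseins over the 9 strain arrays, of 2520 with an SD of at least 0.5, were those of Hsd11b1 (r = 0.90), Sfrp1, Slc39a8, Mtcp1, Lgi4, Slpi, Pomc and Gstm3 (r = 0.79). The least like were Klf4 (r = -0.90), Mobp, Zfp787 and Hk2. The 5 caseins did not move together: Csn1s2a had r = -0.49 with Csn1s2b and r = -0.36 with Csn3. Each counted equally, the dim Csn1s2b included, so this mean is not the order that Csn1s1, Csn2 and Csn1s2a shared. When MOLF A and NZB B were left out, 3 of the 8 stayed among the 8 most like. Hsd11b1, an enzyme that reactivates glucocorticoid, was at 6.18 and 7.17 in NZB, 6.02 and 6.36 in ILn, 6.94 and 6.11 in MOLF, 5.99 and 4.75 in LP and 6.06 in FVBn. Klf4, a zinc finger transcription factor, was at 5.47 and 5.10 in NZB, 5.86 and 5.69 in ILn, 5.23 and 5.73 in MOLF, 6.35 and 7.20 in LP and 6.31 in FVBn.

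For Csn1s2a and Ltf, chosen after their values were seen, the most like probe sets were those of Nqo1 (r = 0.93) and H2-Eb1 (r = 0.98). Nqo1, a quinone reductase, was at 8.10 and 7.94 in NZB, above 6.64 to 7.37 on the other strain arrays. H2-Eb1, a class II histocompatibility gene, was at 5.39 and 4.75 in MOLF, 9.28 and 8.88 in LP, 8.33 and 8.61 in ILn, 8.64 and 7.34 in NZB and 7.17 in FVBn. Without MOLF A and NZB B, 4 of the 8 genes most like Csn1s2a and 2 of the 8 most like Ltf were still among the 8.

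For almost every milk gene, the array with no strain name lay outside the range of the 9 strain arrays. The share of all probe sets outside that range on this array is not given here. These values are therefore not shown to be particular to milk genes. Csn1s1, at 13.05, Csn2, at 11.91, and Csn1s2a, at 11.55, were above all 9, with Csn1s2a 1.98 above the median of the 9. Wap was at the floor, 4.75, against 10.19 to 11.53 on the strain arrays. Lalba was at 8.21, against 11.36 to 12.25 on the strain arrays, and Ltf at 8.22, against 10.51 to 11.76. Csn3, at 11.36, Muc1, at 8.51, and Xdh, at 7.48, were below all 9 strain arrays, and Csn1s2b was at the floor. The mean of Csn1s1, Csn2 and Csn1s2a minus that of Wap and Lalba, each relative to the 9 strain arrays, was 5.86 on this array. It was -1.15 to 1.16 on the strain arrays, and it leaves out Csn1s2b, Csn3 and Ltf.

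**Figure D4:**
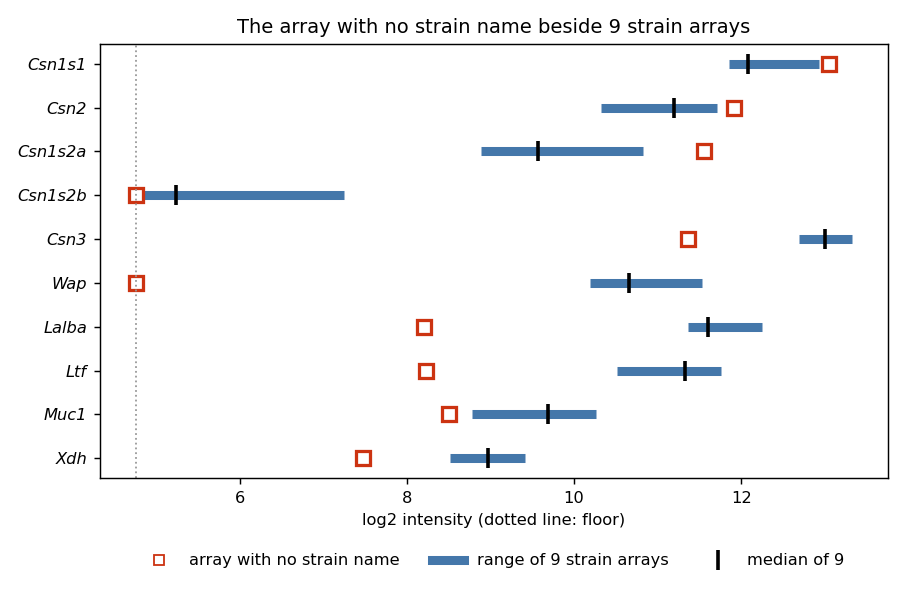
Log2 intensity (horizontal axis) of each milk protein gene on the array with no strain name (open squares), with bars for the lowest to the highest of the 9 strain arrays and ticks at their median. Squares lie right of the bars for Csn1s1, Csn2 and Csn1s2a, left of them for Csn3, Wap, Lalba, Ltf, Muc1 and Xdh, and at the floor for Csn1s2b and Wap.

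On that array the luminal markers averaged 1.24 log2 units lower than the mean of the 9 strain arrays. Krt19 (9.60) and Cdh1 (7.93) were within the range of the strain arrays, and Spint2 was at the floor. Markers of adipocytes averaged 3.33 higher, of skeletal muscle 3.32 and of fibroblasts 1.43 higher. Lep (9.42) of the adipocyte list and Col1a2 (9.70) and Fbln2 (8.59) of the fibroblast list were within the range of the strain arrays. The tested genes of the basal and myoepithelial list averaged 1.55 higher, but not alike. Acta2 (10.12), Mylk (9.94), Myh11 (8.31) and Cnn1 (7.19) were above all 9 strain arrays. Krt17 (7.22) and Trp63 (6.29) were within the range of the strain arrays. The part of these cell types in the milk gene values was not tested, and with 1 array no test was made. The date in the title of this array is shared by no strain array, so date and sample cannot be told apart.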

How the data were processed

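Per the labels, biotin-labelled total RNA from tumours was hybridised to Affymetrix mg_u74av2 arrays. The deposited values are probe set intensities on a linear scale, and how probes were summarised was not given in the sources used here. Without the extreme 2% of probe sets at either end, the mean was 150.0 on 9 arrays and 499.9 on ILn A. The 9 strain arrays were quantile normalized on the log2 scale (R 4.3.3, limma 3.58.1), floored at the 30th percentile, and the unnamed array was set to that distribution. Of 12422 probe sets, 9899 lay above the floor on at least 2 of 9 arrays. A single limma model held a mean per strain name (eBayes with an intensity trend, 4 residual degrees of freedom) for 8 comparisons: an F test over the 4 replicated strains, each strain against the mean of the other 3, the 4 against FVBn, ILn against NZB and LP against MOLF. P-values were Benjamini-Hochberg adjusted over all tested probe sets. The scripts were tested on simulated data. The members and lists were chosen with earlier results of these data known. All 10 members are named; of other lists, genes past a test, up to 4, or else the 2 with the widest spread. Symbols came from the platform annotation: 10855 probe sets have 1 symbol, 396 several and 1237 none. Alternatives covered normalization, filter, floor, trend, title date, array letter and left-out arrays. The number of arrays limits the precision.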

Additional observations from a re-analysis of the deposited data

How the results depend on the processing

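No milk gene difference that passed reversed its direction under any of 17 alternatives, but counts of passing genes did change. Where 2 genes passed the F test, 0 passed with median centring, without the intensity trend, with the title date as a block or without MOLF A and NZB B, and 1 passed with trimmed-mean scaling, without the filter, with the floor at the 10th percentile or with the replicate block. Where 1 gene passed for LP, MOLF, NZB, or LP against MOLF, 0 passed in each of the 4 with median centring, without the trend or without MOLF A and NZB B, and 0 passed for LP, MOLF and NZB with the title date block. For MOLF and for LP against MOLF 0 passed with trimmed-mean scaling or without the filter, which added 1 gene (Csn1s2a) for ILn against NZB. The array letters did not pair the arrays (correlations of A minus B between strains from -0.71 to 0.13), and with the replicate block 0 genes passed for LP and for MOLF. Leaving out 1 array at a time gave 0 to 1 gene in the F test, for LP and for NZB, and 0 to 0 for MOLF and for LP against MOLF; these fits have fewer arrays. Csn1s2b was not tested under the stricter filter. Under median centring or trimmed-mean scaling the signs of Csn1s1, Csn3 and Xdh in ILn, Csn3 in LP, Wap in MOLF and Xdh in NZB turned, all of them differences that did not pass. The cause of these changes was not tested. With 2 arrays a strain and unequal spread within strains, the differences of dim genes such as Csn1s2b are the least certain.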
